A study of Mus musculus with 12 samples.

Results

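Genes of the G2 phase and mitosis, the part of the cell cycle in which a cell that has copied its DNA divides, were compared between wild-type and MLL1 knockout fibroblasts of mouse embryos (MEF), connective tissue cells in culture. The genes are a list of 44 from the machinery of mitosis, chosen with earlier results of these data known. Each was read from the probe set with the highest mean among those annotated to its symbol alone. Of the 44, 43 had such a probe set, and Ccnb1, which encodes cyclin B1, was not analysed here. All 43 also passed the filter on dim genes, among 13956 genes tested of 19938 measured. Top2a alone had 2 probe sets, and the brighter was used.

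The 12 arrays form 4 groups of 3: WT MEF and MLL1-KO MEF at CT18 and CT30, that is 18 h and 30 h after a serum shock. MLL1 is a histone methyltransferase encoded by Kmt2a. The medium of all groups held 5% newborn calf serum beside 5% fetal bovine serum, and all received 50% horse serum for 2 h, a pulse known to bring the circadian clocks of a culture into step, which also carries growth factors, so no group is without the shock. The labels name neither the allele nor the line behind the knockout, nor the embryos' strain or age, and they do not say that replicates are separate cultures, so the p-values rest on an array-to-array spread that may be only technical. Each genotype is known here only as such arrays, so a difference between genotypes cannot be told apart from one between the lines or cultures they came from. The number of arrays limits the precision. Kmt2a itself had intensities of 2265, 2824 and 2099.7 in wild type and 2120.2, 2174 and 1959.7 in knockout at 18 h (log2 difference -0.19, adjusted p = 0.108, or -0.28 with adjusted p = 0.0235 once wild-type 18 h replicate 3 was left out) and was lower in knockout at 30 h (log2 difference -0.57, adjusted p = 0.000111). Kmt2a was not called at 18 h with all arrays. Where its probes lie relative to the disrupted part is not given, so these values do not check the labels.

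Entry into mitosis is driven by CDK1, a kinase that needs a cyclin partner and is held back by WEE1 and released by CDC25 phosphatases. Polo-like and Aurora kinases then build the spindle, the spindle checkpoint holds the anaphase-promoting complex (APC/C) until each chromosome is attached, and the APC/C destroys cyclin B and securin so that chromatids part and the cell divides. In cycling cells the genes of this machinery are transcribed mainly in G2 and mitosis, under the DREAM and MuvB-MYB-FOXM1 complexes, which bind promoters with a CHR element and with CCAAT boxes, the site of the factor NF-Y. Fibroblasts that stop dividing lower these genes together.

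Promoter windows from RefSeq (GRCm38.p6, 250 bases before to 50 after the annotated start) were at hand for 36 of the 44 genes. Aurkb, Ccna2, Cdc25c, Foxm1, Incenp, Kif20a, Tpx2 and Wee1 had none and were not searched. They were searched on both strands for the CHR letters TTTGAA, the variant TTCGAA, the CCAAT box CCAAT and the E-box CACGTG, the site of circadian clock activators. TTTGAA was in the window of 26 of 36 genes (72.2%), against 20.2% of all 27025 genes with a window. CCAAT was in 29 of 36 (80.6% against 41.1%), and 20 of 36 held at least 2 copies (55.6% against 13.3%). A CHR form and a CCAAT box stood together in 26 of 36 windows (72.2% against 8.6%). The E-box was in 3 of 36, in Anln, Espl1 and Ttk (8.3% against 8.1%). These matches are descriptions of letters, not measured binding.

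Windows are shown for 6 genes that the values below turn on. Cdca8 and Prc1 were among the members with large differences, and Cdc20 is the activator of the APC/C. Ckap2 was lower in knockout, Pttg1 was called lower at 30 h only, and Birc5 was higher without a match. The windows run from 120 bases before to 30 bases after the start, 5′ to 3′ on the gene's strand. Their matches are in capitals (CCAAT on the other strand reads ATTGG). They lie in GRCm38.p6, Cdca8 at chr4:124936888-124937037 (minus strand), Prc1 at chr7:80294331-80294480 (plus strand), Cdc20 at chr4:118437314-118437463 (minus strand), Ckap2 at chr8:22185790-22185939 (minus strand), Birc5 at chr11:117849117-117849266 (plus strand) and Pttg1 at chr11:43425952-43426101 (minus strand).
Cdca8: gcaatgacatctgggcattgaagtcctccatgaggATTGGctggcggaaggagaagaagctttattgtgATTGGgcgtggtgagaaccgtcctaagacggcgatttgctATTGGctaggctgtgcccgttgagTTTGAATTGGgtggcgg
Prc1: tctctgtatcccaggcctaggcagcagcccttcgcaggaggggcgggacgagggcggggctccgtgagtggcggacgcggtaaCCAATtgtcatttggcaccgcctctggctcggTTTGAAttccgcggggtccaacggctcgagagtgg
Cdc20: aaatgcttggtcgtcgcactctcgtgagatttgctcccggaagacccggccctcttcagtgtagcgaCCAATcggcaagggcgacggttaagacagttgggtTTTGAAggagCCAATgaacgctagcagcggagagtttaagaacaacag
Ckap2: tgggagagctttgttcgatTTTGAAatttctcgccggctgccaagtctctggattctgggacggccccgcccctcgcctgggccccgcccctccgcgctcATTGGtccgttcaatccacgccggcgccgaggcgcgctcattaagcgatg
Birc5: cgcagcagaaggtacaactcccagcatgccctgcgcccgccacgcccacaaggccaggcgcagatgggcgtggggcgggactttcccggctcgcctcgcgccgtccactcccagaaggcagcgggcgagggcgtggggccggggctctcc
Pttg1: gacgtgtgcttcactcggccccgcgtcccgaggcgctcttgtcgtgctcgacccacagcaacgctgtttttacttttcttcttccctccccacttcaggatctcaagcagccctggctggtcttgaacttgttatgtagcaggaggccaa
Cdca8 held TTTGAA 14 bases after the start, overlapping by its last base the nearest of 4 CCAAT boxes, and the other boxes began 85, 51 and 11 bases before the start. Prc1 and Cdc20 held TTTGAA 5 and 18 bases before the start. Prc1 has another annotated start, from which TTTGAA lay 30 and CCAAT 62 bases upstream. Ckap2 held both elements, with TTTGAA 101 bases and CCAAT 20 bases before the start. Birc5 and Pttg1 held none of the letters searched in these stretches. In knockout Birc5 was higher at both times and Pttg1 was called lower at 30 h only.

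On some arrays the members leaned to one side of their group. Wild-type 18 h replicate 3 was the lowest of its group in 33 of the 43 genes, and knockout 18 h replicate 1 the lowest of its group in 33 of 43. Wild-type 18 h replicate 1 was the highest of its group in 29, and knockout 30 h replicate 3 the lowest of its group in 26. The first 2 of these arrays are called the low 18 h arrays. The median replicate SD of the members in wild type at 18 h was 0.148 on the log2 scale, against 0.101 over all tested genes, while in the other groups it was 0.0554 to 0.093 against 0.0815 to 0.106. Relative to the wild-type 18 h mean, the members' median stood at 0.11, 0.040 and -0.14 in the 3 wild-type 18 h arrays, at 0.085 to 0.18 in wild type at 30 h, at 0.63 to 0.74 in knockout at 18 h and at 0.63 to 0.67 in knockout at 30 h. Every knockout array thus lay above every wild-type array by this median, at both times.

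Markers of cell type, of which those named here were picked after their values were seen, also differed between the genotypes. Of 12 fibroblast markers 11 were tested, and 4 were higher and 5 lower in knockout at 18 h, and 4 and 6 at 30 h. Pdgfra, a growth factor receptor of fibroblasts, and Col3a1, a collagen, were among the lower ones, while Col1a1 and Col1a2 were higher. Pdgfra and Col3a1 had log2 differences at 18 h of -3.22 (adjusted p = 6.61e-15) and -2.53 (adjusted p = 3.74e-12). Over the 11 tested fibroblast markers the log2 differences at 18 h ran from -3.22 to 3.74, with a median of 0.053. The summed intensity of the fibroblast list was 67539 to 71137 over the wild-type arrays and 64329 to 68106 over the knockout arrays. Of 10 neural markers 5 were tested. Nes, Map2 and Tubb3 were higher in knockout at both times, and the other 2, Sox2 and S100b, were called at neither. Nes, which encodes the intermediate filament nestin, had 32.7, 40.6 and 29.1 in wild type and 2789, 2403 and 2336 in knockout at 18 h. The neural list summed to 1633 to 1978 in wild type and 6837 to 7694 in knockout, while Gfap, Olig2, Neurod1, Dcx and Stmn2 fell below the filter. Of 12 macrophage and blood cell markers 6 were tested. Cd68, a lysosomal protein, was higher at 18 h, with 1214, 1189 and 1122 in wild type and 1315, 2635 and 2964 in knockout, so that knockout 18 h replicate 1 stood apart here too, and Cd14 was higher at 30 h. That list summed to 2517 to 2869 in wild type and 2507 to 4652 in knockout. None of 6 endothelial markers passed the filter, with sums of 672 to 812 and 758 to 995, and none of 5 tested epithelial markers was called between genotypes, with sums of 1275 to 1562 and 1452 to 1626. The neural markers Nes, Map2 and Tubb3, 3 of the 5 tested, move with genotype in the direction of most mitotic genes below. Fibroblast markers move in both directions, and the part of all these markers in the result was not tested.

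**Figure D1:**
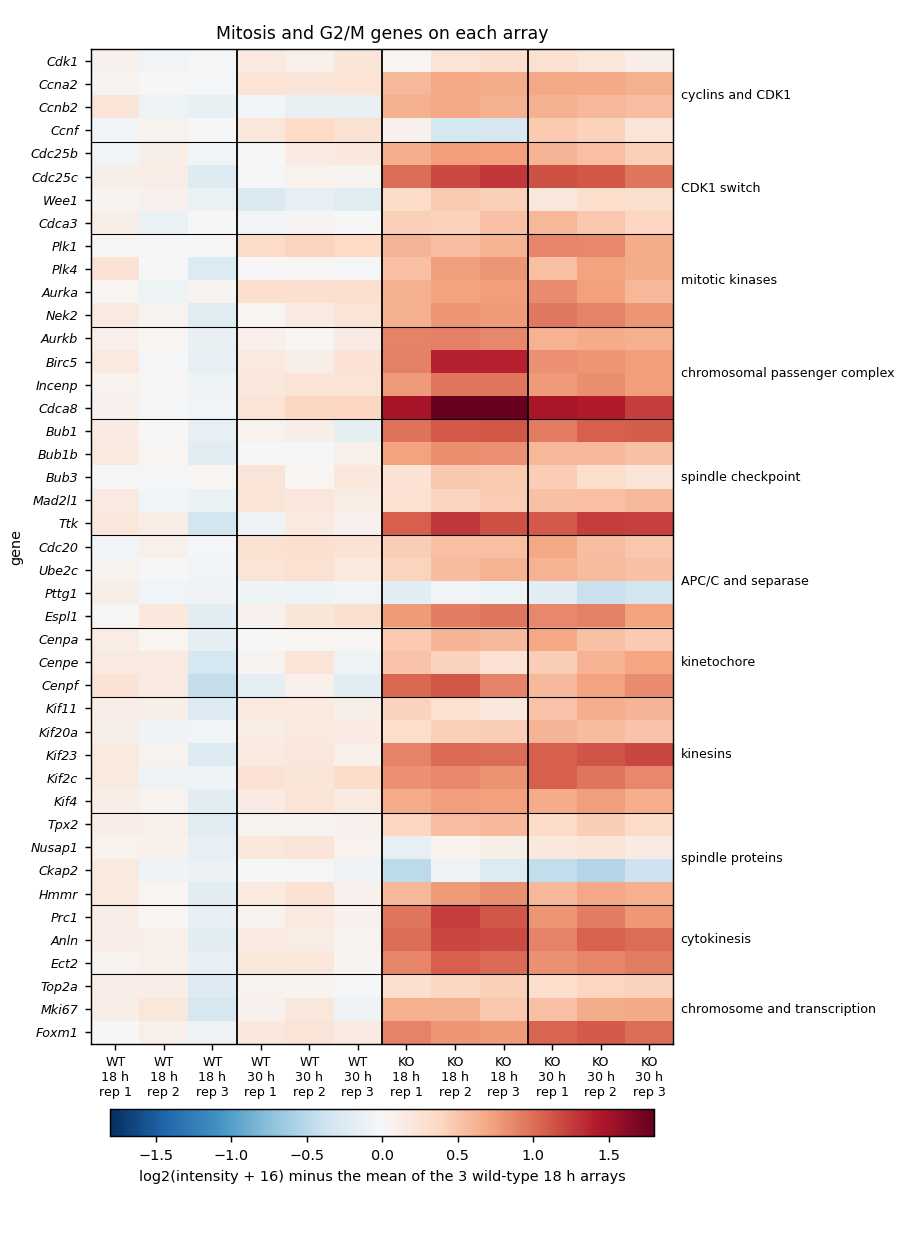
Log2(intensity + 16) of the 43 mitosis and G2/M genes on each of the 12 arrays, minus the gene's mean over the 3 wild-type 18 h arrays; rows are genes grouped by function, columns are arrays. Red (higher) fills most of the 6 knockout columns, and Ckap2, Pttg1, Nusap1, Ccnf and Cdk1 are among the pale or blue rows.

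At 18 h most of the listed genes were higher in knockout: 39 of 43 were called higher and 1, Ckap2, lower (limma on log2(intensity + 16), adjusted p under 0.05 over all 13956 genes). As the list was chosen with earlier results of these data known, these counts describe the list only. The genotypes differed widely across the array, where 60.1% of all tested genes were called, 26.3% higher and 33.8% lower, so a call by itself was common and the members are set against the share called higher. Their median log2 difference was 0.70, a 1.62-fold higher level, against -0.03 over all tested genes, and 8 of the 43 differed by at least 2-fold. In 38 of 43 members no array of one genotype overlapped the other, against 63.1% of all tested genes. The exceptions were Cdk1, Ccnf, Pttg1, Nusap1 and Ckap2. Without both low 18 h arrays, 37 were higher and 2 lower. RNA of whole cultures does not tell apart a larger share of cells in G2 and mitosis from more of these RNAs in each such cell.

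At 30 h 37 of 43 were higher and 2, Ckap2 and Pttg1, lower, where 52.9% of all tested genes were called, 24.3% higher and 28.6% lower. The median log2 difference was 0.53 (1.44-fold), against 0.018 over all genes, and 4 members differed by at least 2-fold. In 40 of 43 the genotypes' arrays stood fully apart, against 61.4% of all genes, and the exceptions were Cdk1, Ccnf and Nusap1. The comparisons at the 2 times share no arrays, but they set the same genotypes against each other and share an estimate of the spread. The second is thus not an independent repeat of the first. Called higher at both were 37 members (18.9% of all tested genes), and 2 more, Cdk1 and Bub3, were called at 18 h only.

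**Figure D2:**
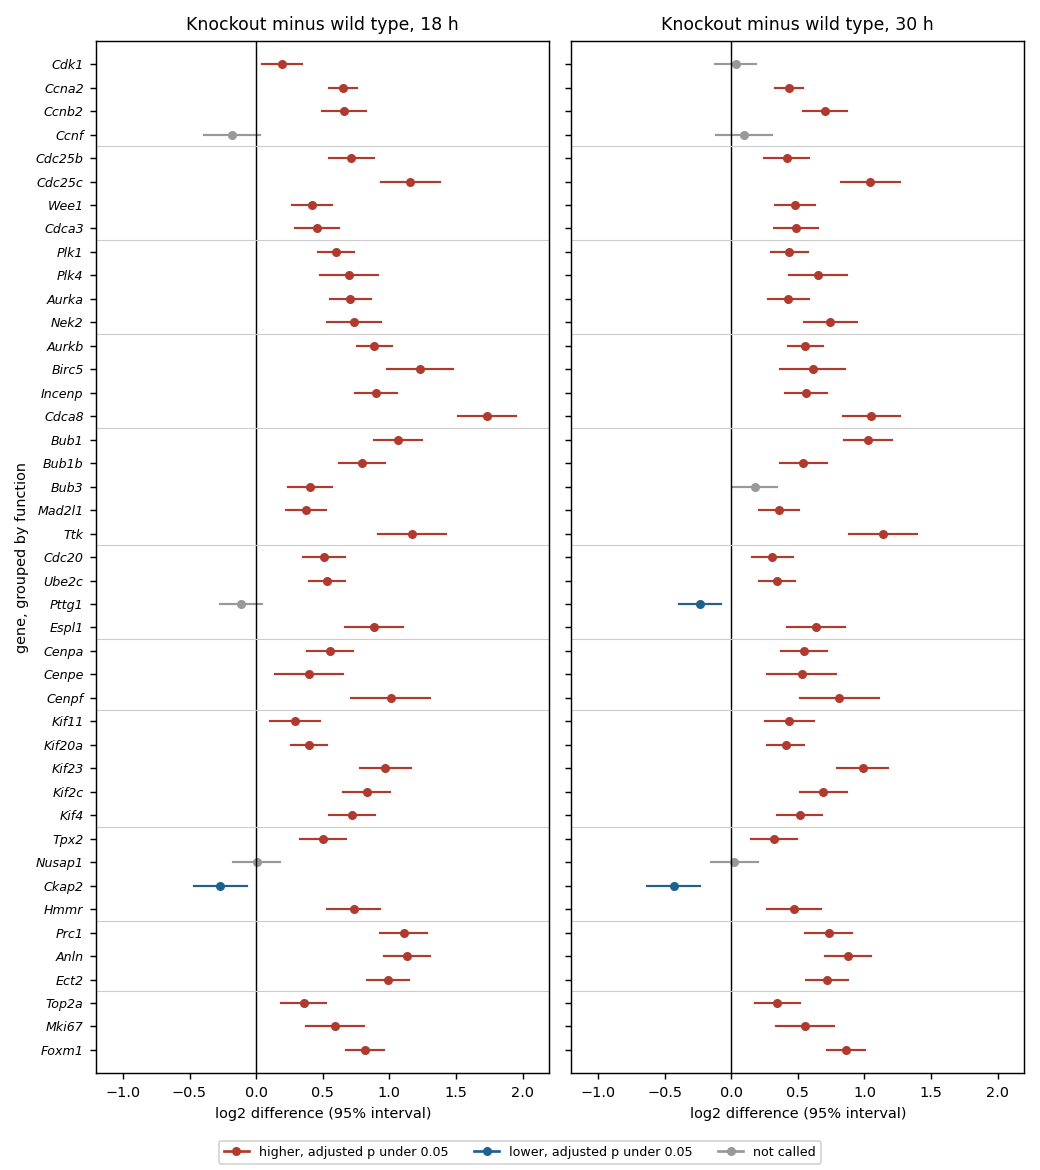
Log2 difference, knockout minus wild type, of each gene at 18 h (left) and 30 h (right), with its 95% interval from the fit over 12 arrays (points, estimates; bars, intervals; colour, call). Nearly all intervals lie to the right of 0, with Cdca8 farthest at 18 h (1.73) and Ttk at 30 h (1.14), while Ckap2 lies to the left at both times.

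The chromosomal passenger complex, in which Aurora B kinase corrects faulty attachments and later acts at the division plane, held the largest difference of all members at 18 h. Cdca8, which encodes borealin, the subunit that helps to anchor the complex at centromeres, had intensities of 573, 533 and 521 in wild type and 1549, 1978 and 2026 in knockout at 18 h, and 644, 704 and 713 in wild type and 1529, 1488 and 1313 in knockout at 30 h. The 6 knockout arrays all lay well above the 6 wild-type arrays. Its log2 difference was 1.73 ± 0.10 at 18 h (SE, n = 3 each, adjusted p = 1.94e-10), 3.32-fold, and 1.05 ± 0.10 at 30 h (adjusted p = 1.52e-07). Birc5, which encodes survivin, the subunit that reads a phosphorylated histone, had 1111, 956 and 885 in wild type and 1844, 2584 and 2609.9 in knockout at 18 h, and 1106, 1050.2 and 1177 in wild type and 1744, 1713 and 1654 in knockout at 30 h. Within the knockout 18 h group replicate 1 lay apart at 1844 (called with and without it). Aurkb, the kinase, had 3454, 3319.8 and 2962 in wild type and 6003, 6092 and 5915 in knockout at 18 h, and 3450.0, 3326 and 3593 in wild type and 5000.4, 5178 and 5066 in knockout at 30 h. Incenp, the scaffold that activates the kinase, had 1236, 1199.9 and 1117 in wild type and 2019.6, 2328 and 2316 in knockout at 18 h, and 1348, 1405 and 1411 in wild type and 2019, 2133 and 2005 in knockout at 30 h. For these genes too no knockout array reached down to a wild-type array of the same time, with log2 differences at 18 h of 1.23, 0.89 and 0.90, and at 30 h of 0.61, 0.55 and 0.56, all 6 called.

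The cyclins and CDK1 moved unequally. Ccnb2, which encodes cyclin B2, a partner of CDK1 in mitosis, had 4951, 3939 and 3821 in wild type and 6536, 6819 and 6584 in knockout at 18 h, and 4073, 3831 and 3834 in wild type and 6552, 6405 and 6215 in knockout at 30 h. Groups did not overlap at either time, with log2 differences of 0.66 (adjusted p = 1.41e-06) and 0.71 (adjusted p = 8.09e-07). Ccna2, the cyclin of S phase and early mitosis, was higher by 0.65 at 18 h and 0.44 at 30 h (adjusted p = 5.22e-09 and 1.08e-06). Cdk1, the kinase itself, had 4753, 4346 and 4442 in wild type and 4622, 5336 and 5587 in knockout at 18 h, and 5109, 4817 and 5245 in wild type and 5446, 5205 and 4881 in knockout at 30 h. Its arrays overlapped at both times. The log2 difference was 0.20 (adjusted p = 0.0267) at 18 h, a call that ended without the intensity trend (adjusted p = 0.0578), with only the 18 h arrays in the fit (adjusted p = 0.0637) and without wild-type 18 h replicate 2 (0.17), 3 (0.18) or, in knockout at 18 h, replicate 2 (0.17), 3 (0.14). It was 0.033 at 30 h (adjusted p = 0.724, 95% interval -0.12 to 0.19, which like all intervals here is not adjusted for the number of genes). Ccnf, which encodes cyclin F, a ubiquitin ligase subunit with no CDK of its own, had 1583, 1721 and 1632 in wild type and 1735, 1319.7 and 1326 in knockout at 18 h, and 1895, 2108 and 1996 in wild type and 2286, 2198 and 1941 in knockout at 30 h. At 18 h knockout replicates 2 and 3 lay below every wild-type array while replicate 1 lay above them. Ccnf missed the threshold at 18 h (-0.18, adjusted p = 0.13), was called lower without knockout 18 h replicate 1 (-0.31, adjusted p = 0.00327), and was not called at 30 h (0.096, adjusted p = 0.446, 95% interval -0.11 to 0.31).

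The regulators that switch CDK1 on and off were all higher, those that release it and the one that holds it back alike. Cdc25c, a phosphatase that activates CDK1 at mitotic entry, had 491, 499.8 and 384 in wild type and 934, 1056 and 1122 in knockout at 18 h, and 445, 478 and 474 in wild type and 1025, 1010.5 and 902 in knockout at 30 h. The groups were apart at both times, with log2 differences of 1.16 (adjusted p = 5.58e-08) and 1.04 (adjusted p = 2.55e-07). Cdc25b, its relative that acts earlier, at the centrosome, had 1224, 1369 and 1228 in wild type and 2007, 2149 and 2137 in knockout at 18 h, and 1271, 1418 and 1449 in wild type and 1947, 1863 and 1724 in knockout at 30 h (log2 0.71 and 0.42, both called). Wee1, the kinase that holds CDK1 inactive and a gene whose transcription the circadian clock is known to drive in liver, was higher by 0.42 and 0.48 (adjusted p = 7.6e-05 and 2.17e-05). Cdca3, which triggers mitotic entry through the ubiquitin pathway, was higher by 0.46 and 0.48.

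All 4 kinases of the spindle poles and centrosome were higher at both times. Nek2, which parts the duplicated centrosomes, had 1142, 1066 and 878 in wild type and 1602, 1785 and 1744 in knockout at 18 h, and 1044, 1130.1 and 1206 in wild type and 1998, 1909 and 1785 in knockout at 30 h, with log2 differences of 0.73 (adjusted p = 4.21e-06) and 0.74 (adjusted p = 4.53e-06). Aurka, the Aurora kinase of the spindle poles, had 1715, 1561 and 1732 in wild type and 2619, 2752 and 2824 in knockout at 18 h, and 2054, 2062 and 2065 in wild type and 3025, 2791 and 2539.7 in knockout at 30 h. Its difference was 0.71 at 18 h and 0.43 at 30 h, both called. Plk1, the polo-like kinase of mitotic entry, was higher by 0.60 and 0.44, and Plk4, which starts centriole duplication, by 0.70 and 0.65.

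In the spindle checkpoint, which delays anaphase while a kinetochore is unattached, all 5 genes were higher at 18 h and 4 at 30 h. The kinases had the larger differences. Ttk, the MPS1 kinase that starts checkpoint signalling, had 802, 760.1 and 546 in wild type and 1483, 1698 and 1559 in knockout at 18 h, and 649, 788 and 729.5 in wild type and 1505, 1672 and 1647 in knockout at 30 h. Its knockout arrays were well above the wild-type arrays at both times, with log2 differences of 1.17 (adjusted p = 2.64e-07) and 1.14 (adjusted p = 4.67e-07). Bub1, the kinase that recruits the other checkpoint proteins, had 1.06 and 1.02, and Bub1b, which encodes BUBR1, an inhibitor of the APC/C, had 0.79 and 0.54. Mad2l1, whose product binds CDC20, was higher by 0.38 and 0.36. Bub3, the adaptor of BUB1 and BUBR1, had 3038, 2976 and 3112 in wild type and 3648, 4271 and 4220.3 in knockout at 18 h, and 3558, 3112 and 3486 in wild type and 4151, 3798 and 3566 in knockout at 30 h. It was higher at 18 h (0.41, adjusted p = 0.000217) and missed the threshold at 30 h (0.18, adjusted p = 0.0608, 95% interval 0.016 to 0.34). It was called at 30 h under quantile scaling (0.24, adjusted p = 0.0159), under cyclic loess (0.19, adjusted p = 0.0393), with only the 30 h arrays in the fit (adjusted p = 0.0454), without both low 18 h arrays (adjusted p = 0.0278), and without knockout 18 h replicate 1 (0.18) or, in knockout at 30 h, replicate 3 (0.23).

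Among genes of the APC/C and of chromatid separation, the protease went one way and its inhibitor another. Espl1, which encodes separase, the protease that opens cohesin, had 589.7, 665 and 506 in wild type and 1003, 1119 and 1158 in knockout at 18 h, and 616, 683 and 715 in wild type and 1080.5, 1105 and 972 in knockout at 30 h, with log2 differences of 0.89 (adjusted p = 1.08e-06) and 0.64 (adjusted p = 5.4e-05). Pttg1, which encodes securin, the inhibitor that binds separase until anaphase, had 2309.6, 2081 and 2049 in wild type and 1864, 2071 and 2009.9 in knockout at 18 h, and 2040.1, 2015 and 2070.3 in wild type and 1882, 1618 and 1709 in knockout at 30 h. Its arrays overlapped between genotypes at 18 h, and at 30 h all knockout arrays lay below all wild-type arrays. Pttg1 missed the threshold at 18 h (-0.11, adjusted p = 0.216) and was lower at 30 h (-0.23, adjusted p = 0.0154), a call that ended without knockout 30 h replicate 2 (-0.19) and under quantile scaling (-0.15, adjusted p = 0.101). Cdc20, which activates the APC/C at anaphase, was higher by 0.51 and 0.31, and Ube2c, the ubiquitin-conjugating enzyme of the APC/C, by 0.53 and 0.34, all called.

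The 3 kinetochore genes were higher at both times. Cenpf, a large kinetochore protein of G2 and mitosis, had 1628, 1519 and 1005 in wild type and 2778, 2949 and 2523 in knockout at 18 h, and 1199, 1438 and 1192 in wild type and 2033, 2255 and 2453 in knockout at 30 h. Wild-type 18 h replicate 3 was far below its group here, and knockout arrays still lay above all wild-type arrays, with log2 differences of 1.01 (adjusted p = 8.46e-06) and 0.81 (adjusted p = 0.000112). Cenpa, the histone variant that marks centromeres, was higher by 0.55 and 0.54. Cenpe, a kinesin that brings chromosomes to the spindle equator, was higher by 0.40 (adjusted p = 0.00934) at 18 h, a call that ended without wild-type 18 h replicate 3 (0.24), and by 0.53 at 30 h.

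The 5 kinesins, proteins of a motor family that act on microtubules, were all higher at both times. Kif23, part of the centralspindlin complex at the division plane, had 2146, 1981 and 1599 in wild type and 3516, 3854 and 3809 in knockout at 18 h, and 2116, 2193 and 2009.9 in wild type and 4012, 4171 and 4385 in knockout at 30 h, with log2 differences of 0.97 (adjusted p = 7.03e-08) and 0.99 (adjusted p = 7.16e-08). Kif4, which sets the length of the central spindle, had 1265, 1217 and 1021 in wild type and 1855, 1971 and 1957 in knockout at 18 h, and 1290.2, 1363 and 1299.5 in wild type and 1852, 1966 and 1842 in knockout at 30 h. It was higher by 0.72 and 0.51. Kif2c, which takes microtubules apart at centromeres, was higher by 0.83 and 0.69, and Kif20a, a motor of cytokinesis, by 0.40 and 0.41. Kif11, which pushes the spindle poles apart, had the smallest difference of the 5 at 18 h (0.29), and it was 0.44 at 30 h. Without both low 18 h arrays the Kif11 difference at 18 h was 0.12 (adjusted p = 0.152).

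Spindle-associated proteins were called in both directions. Hmmr, a microtubule protein of the spindle poles, had 1584, 1424 and 1205 in wild type and 2117, 2382 and 2498 in knockout at 18 h, and 1586, 1679 and 1469 in wild type and 2111, 2282 and 2193 in knockout at 30 h, with log2 differences of 0.73 (adjusted p = 4.27e-06) and 0.47 (adjusted p = 0.000472). Tpx2, which activates Aurora A on the spindle, was higher by 0.50 and 0.32. Nusap1, which bundles microtubules near chromosomes, had 2786, 2814 and 2385 in wild type and 2384, 2770.1 and 2862 in knockout at 18 h, and 3067, 3109 and 2762 in wild type and 3033, 3079.9 and 2955 in knockout at 30 h. Its genotypes overlapped at both times, and the differences were 0.0052 (adjusted p = 0.964) (95% interval -0.17 to 0.18) and 0.022 (adjusted p = 0.844) (95% interval -0.15 to 0.20). Ckap2, a microtubule-stabilizing protein of the spindle, had 3048, 2555 and 2495 in wild type and 1940.0, 2517 and 2260.4 in knockout at 18 h, and 2673, 2719 and 2576 in wild type and 1969, 1863 and 2064 in knockout at 30 h. Knockout 18 h replicate 2 lay among the wild-type arrays, and at 30 h the genotypes were apart. Ckap2 had a log2 difference of -0.27 (adjusted p = 0.0196) at 18 h, a call that ended without wild-type 18 h replicate 1 (-0.18) or, in knockout at 18 h, replicate 1 (-0.17) and, at -0.22, after array medians were set equal or under cyclic loess, and with only the 18 h arrays in the fit (adjusted p = 0.0632). It was lower at 30 h (-0.43, adjusted p = 0.000892).

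**Figure D3:**
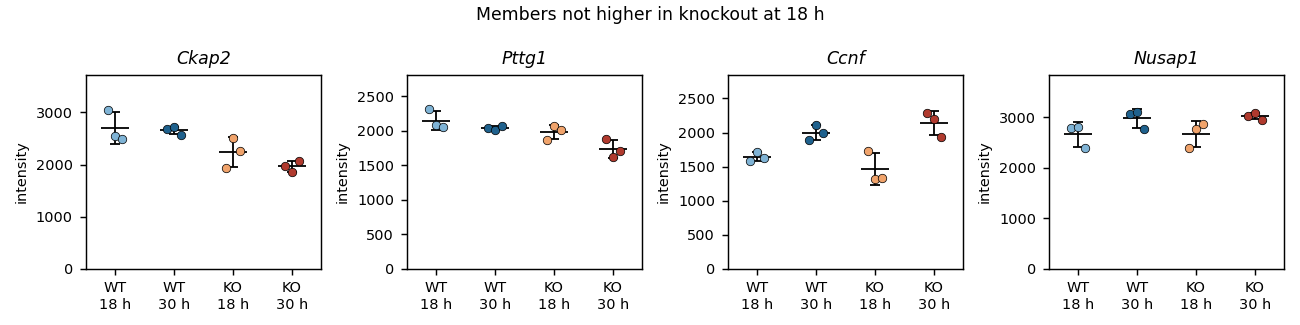
Intensity of Ckap2, Pttg1, Ccnf and Nusap1 on a linear axis from 0, with each array as a point and the mean ± SD of 3 arrays as a line with bars. Knockout at 30 h lies below wild type for Ckap2 and Pttg1, knockout 18 h replicate 1 lies apart from the other 2 for Ccnf, and the groups of Nusap1 overlap between genotypes.

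Genes of cytokinesis, the final cleavage of the cell, were all higher. Anln, which encodes anillin, the scaffold of the contractile ring, had 3807, 3752 and 3046 in wild type and 7100.0, 8142 and 7933 in knockout at 18 h, and 3884, 3878 and 3629 in wild type and 6567, 7330.0 and 7092 in knockout at 30 h, with log2 differences of 1.13 (adjusted p = 2.83e-09) and 0.88 (adjusted p = 8.87e-08). Prc1, which bundles the central spindle, had 2384, 2266 and 1981 in wild type and 4303, 5257 and 4793 in knockout at 18 h, and 2293, 2480.3 and 2327 in wild type and 3843, 4188 and 3795 in knockout at 30 h. Its differences were 1.11 and 0.73, both called. Ect2, the exchange factor that activates RhoA at the cleavage plane, was higher by 0.99 and 0.72.

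Of the remaining genes, Foxm1, the transcription factor that raises many G2 and mitosis genes, had 1745, 1859 and 1632 in wild type and 3248, 3044 and 2980.3 in knockout at 18 h, and 1989, 2048 and 1939 in wild type and 3635, 3759.9 and 3523 in knockout at 30 h. The groups were apart at each time, with log2 differences of 0.82 (adjusted p = 1.55e-08) and 0.86 (adjusted p = 9.8e-09). Mki67, the proliferation antigen Ki-67, was higher by 0.59 and 0.55, and Top2a, the topoisomerase that untangles sister chromatids, by 0.36 and 0.35. The second Top2a probe set, dim with group means of 138 to 159, had log2 differences of -0.23 at 18 h and -0.054 at 30 h. With genes split by their promoters, the median difference at 18 h was 0.68 in the 26 with a CHR form and a CCAAT box in 1 window and 0.70 in the 9 measured genes whose window did not hold both, and at 30 h it was 0.50 and 0.61. The 8 genes without a window had medians of 0.74 and 0.52. These medians lie near each other.

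Between 18 h and 30 h the members changed little next to the difference between genotypes. In wild type 4 of 43 rose and none fell, where 3.96% of all tested genes were called, 2.41% higher and 1.55% lower. Of 553 such genes 337 were higher, and under cyclic loess 294 of 579. The members' median was 0.15, against -0.015 over all genes, and 37 of 43 values were above 0. Without wild-type 18 h replicate 3 the members' median was 0.036. Plk1 rose from 2611 ± 49.1 to 3372 ± 80.2 (SD, n = 3 each, log2 0.37, adjusted p = 0.00513), with no overlap, as in 14 of 43 members (all tested genes: 25.6%). Aurka rose by 0.30 (adjusted p = 0.0309), Cdc20 by 0.27 (adjusted p = 0.0456) and Ccna2 by 0.24 (adjusted p = 0.0123).

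Only the Plk1 call held under every setting tried, those that leave out an array included. The Aurka call ended without wild-type 18 h replicate 1 (0.32), 2 (0.26), wild-type 30 h replicate 1 (0.30), 2 (0.30), 3 (0.30) or, in knockout at 30 h, replicate 2 (0.30), and the Ccna2 call without wild-type 18 h replicate 2 (0.24) or wild-type 30 h replicate 1 (0.24), 3 (0.24). The Cdc20 call ended without wild-type 18 h replicate 1 (0.25), 2 (0.32), 3 (0.25), wild-type 30 h replicate 1 (0.27), 2 (0.26), 3 (0.28), knockout 18 h replicate 2 (0.27), 3 (0.27) or, in knockout at 30 h, replicate 2 (0.27). Without the intensity trend all 3 calls ended (adjusted p = 0.0512, 0.0585 and 0.0628 for Aurka, Ccna2 and Cdc20), and with equal array medians those of Aurka and Cdc20 (0.33 and 0.30, adjusted p = 0.0532 and 0.0649). The number of members called in wild type was 1 without wild-type 18 h replicate 2 or wild-type 30 h replicate 1 or 3, 2 without wild-type 30 h replicate 2 or, in knockout at 30 h, replicate 2, and 9 without knockout 18 h replicate 1. Wee1, read against its known clock control, in wild type had 2087, 2130.3 and 1866 at 18 h, then 1687, 1819 and 1746 at 30 h. Its arrays did not overlap, and the log2 difference of -0.21 (adjusted p = 0.113) was not called. It was called without wild-type 18 h replicate 3 (-0.27). In knockout it was -0.14 (adjusted p = 0.126), and it was called lower under cyclic loess (-0.19, adjusted p = 0.0304) and without both low 18 h arrays (-0.18, adjusted p = 0.0323).

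In knockout 4 members rose and 5 fell with time, where 39.3% of all tested genes were called, 20.9% higher and 18.4% lower. The median was -0.031. Ccnf had the largest rise, 0.56 (adjusted p = 0.000338), with no overlap between its arrays at the 2 times, as in 18 of 43 members (all tested genes: 46.2%). Kif11 rose by 0.30, Foxm1 by 0.23 and Plk1 by 0.21. Birc5 fell by 0.44, Cdca8 by 0.35, Prc1 by 0.28, Aurkb by 0.24 and Bub1b by 0.22 on the log2 scale. The Plk1 call ended without knockout 18 h replicate 2 (0.19) or, in knockout at 30 h, replicate 1 (0.17), 2 (0.18), that of Kif11 without knockout 18 h replicate 3 (0.24) or, in knockout at 30 h, replicate 2 (0.27) and that of Foxm1 without knockout 30 h replicate 2 (0.21). The calls of Cdca8 ended without knockout 18 h replicate 2 (-0.30), 3 (-0.28) or, in knockout at 30 h, replicate 3 (-0.28), of Prc1 without knockout 18 h replicate 2 (-0.20) or, in knockout at 30 h, replicate 3 (-0.25) and of Bub1b without wild-type 30 h replicate 1 (-0.22), 2 (-0.22), knockout 18 h replicate 2 (-0.21), 3 (-0.21) or, in knockout at 30 h, replicate 1 (-0.24), 2 (-0.23), 3 (-0.21). Without the intensity trend the Bub1b call ended (adjusted p = 0.0606), and with equal array medians that of Plk1 (0.19, adjusted p = 0.0631). The number of members called was 5 without knockout 18 h replicate 2 or, in knockout at 30 h, replicate 2. Under cyclic loess 4 members rose and 8 fell, under quantile scaling 6 rose and 5 fell, and without both low 18 h arrays 5 rose and 14 fell.

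**Figure D4:**
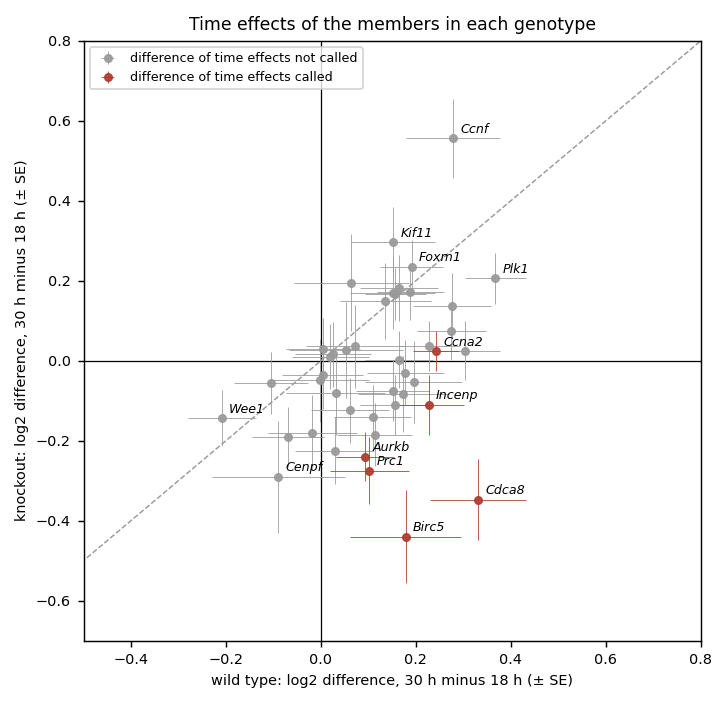
Log2 difference between 30 h and 18 h of each of the 43 genes in wild type (horizontal axis) and in knockout (vertical axis), with SE bars; the dashed line marks equal time effects. The 6 genes in red, among them all 4 of the chromosomal passenger complex, lie below the line.

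Among function groups, the chromosomal passenger complex was the only one with every member called for a difference of time effects, knockout minus wild type. The lists were chosen with earlier results of these data known. Such a difference was called for 20.3% of all tested genes, 10.2% positive and 10.1% negative. It was called for 6 of 43 members (14%), a share below that of all genes, all negative. These were Cdca8 at -0.68 (adjusted p = 0.00381), Birc5 at -0.62 (adjusted p = 0.0144), Prc1 at -0.38 (adjusted p = 0.0326), Incenp at -0.34 (adjusted p = 0.0333), Aurkb at -0.33 (adjusted p = 0.0137) and Ccna2 at -0.22 (adjusted p = 0.036). The same numbers say by how much the difference between genotypes was smaller at 30 h. In wild type the 4 genes of the complex had time effects of 0.33, 0.18, 0.23 and 0.093 for Cdca8, Birc5, Incenp and Aurkb, none called, and in knockout of -0.35, -0.44, -0.11 and -0.24, called for all but Incenp. Prc1, which works beside the complex at the central spindle, had 0.10 in wild type and -0.28 in knockout.

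The calls of Cdca8, Birc5 and Aurkb held under every setting tried, with adjusted p from 7.44e-06 to 0.0143, 6.16e-05 to 0.0473 and 0.00261 to 0.0421. That of Incenp ended without wild-type 18 h replicate 3 (-0.30), wild-type 30 h replicate 2 (-0.33), 3 (-0.33), knockout 18 h replicate 2 (-0.30), 3 (-0.31) or, in knockout at 30 h, replicate 1 (-0.33), 3 (-0.32). That of Prc1 ended without wild-type 18 h replicate 3 (-0.30), wild-type 30 h replicate 1 (-0.40), 2 (-0.34), 3 (-0.39), knockout 18 h replicate 2 (-0.31), 3 (-0.37) or, in knockout at 30 h, replicate 1 (-0.36), 3 (-0.35). That of Ccna2 ended without wild-type 18 h replicate 2 (-0.21), 3 (-0.20), wild-type 30 h replicate 1 (-0.22), 2 (-0.22), 3 (-0.21), knockout 18 h replicate 2 (-0.20), 3 (-0.21) or, in knockout at 30 h, replicate 2 (-0.22), 3 (-0.20). Without the intensity trend the calls of Prc1 (adjusted p = 0.0551) and Ccna2 (adjusted p = 0.115) ended, and that of Ccna2 also with equal array medians (-0.26, adjusted p = 0.051) and with no filter (adjusted p = 0.0501). The number of members called was 3 without wild-type 18 h replicate 3 or, in knockout at 30 h, replicate 3, and also without replicate 2 or 3 of wild type at 30 h or of knockout at 18 h, and 13 without knockout 18 h replicate 1. Without both low 18 h arrays 10 were negative and 2 positive, all 4 genes of the complex among the negative ones. The 2 positive ones were Ccnf at 0.41 (adjusted p = 0.011) and Kif11 at 0.32 (adjusted p = 0.01). With all arrays Ccnf had 0.28 (adjusted p = 0.184) and Kif11 0.14 (adjusted p = 0.471).

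**Figure D5:**
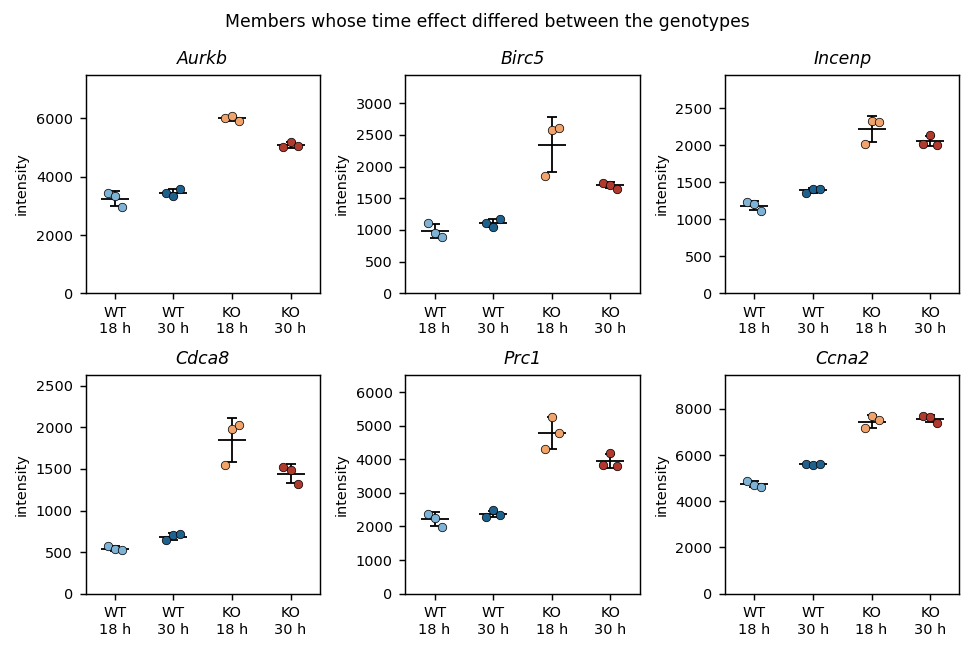
Intensity of the 6 genes whose difference of time effects was called, on linear axes from 0, with each array as a point and the mean ± SD of 3 arrays as a line with bars. Aurkb, Birc5, Cdca8 and Prc1 are lower in knockout at 30 h than at 18 h, Ccna2 is higher in wild type at 30 h than at 18 h, and every knockout point lies above the wild-type points of the same gene.

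Other genes of mitosis, 117 tested in 9 lists, were called in both directions: 59 were higher and 26 lower at 18 h, and 44 and 23 at 30 h, where 26.3% of all tested genes were higher and 33.8% lower at 18 h and 24.3% and 28.6% at 30 h. Their median log2 differences were 0.22 and 0.17. Of condensin, the complex that compacts chromosomes, 7 of 8 were higher and 0 lower at 18 h, and 5 and 1 at 30 h, with Smc2 from 2303 ± 282 in wild type to 4608 ± 447 in knockout at 18 h (SD, n = 3 each, log2 1.00). Of the outer kinetochore, 14 of 17 were higher and 0 lower at 18 h, and 9 and 1 at 30 h, with Ska1, which couples kinetochores to microtubule ends, 2.14-fold higher at 18 h (adjusted p = 1.49e-07). Of other kinesins, 7 of 10 were higher and 1 lower at 18 h, and 7 and 0 at 30 h, with Kif18a, which damps chromosome movements, at 1.07 and Kif3b, a transport motor best known from cilia, at -0.39. In these lists calls were mostly in the direction of the members.

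Calls went both ways in the other lists. The share called at 18 h was 52.9% for the inner kinetochore, 50% for cohesin and 66.7% for the APC/C, near the 60.1% of all tested genes, and nothing is read from these 3 counts. Of the inner kinetochore, 5 of 17 were higher and 4 lower at 18 h, and 4 and 4 at 30 h, and Cenpm went from 2105 ± 170 in wild type to 958 ± 184 in knockout at 18 h (SD, n = 3 each, log2 -1.14, adjusted p = 3.19e-07), the lowest value of the 117, while Mis18a was at 0.88. Of APC/C subunits and regulators, 4 of 15 were higher and 6 lower at 18 h, and 3 and 4 at 30 h, with Ube2s, which extends ubiquitin chains, at 0.81 and the subunit Anapc13 at -0.69. Of cohesin and its regulators, 4 of 12 were higher and 2 lower at 18 h, and 4 and 2 at 30 h, with Cdca5, which encodes sororin, at 1.05 and the cohesin loader Nipbl at -0.46. Of centrosome genes, 5 of 12 were higher and 4 lower at 18 h, and 4 and 3 at 30 h. The share called was 75% at 18 h and 58.3% at 30 h, against 60.1% and 52.9% of all tested genes. Nothing is read from the count at 30 h. Cep55, which acts in the final cut of cytokinesis, was at 1.55 at 18 h and 1.16 at 30 h. Sass6, the core of the new centriole, was lower at 18 h (-0.42, adjusted p = 0.0032) and higher at 30 h (0.32, adjusted p = 0.0207), the latter a call that ended without wild-type 30 h replicate 1 (0.31), 3 (0.28) or, in knockout at 30 h, replicate 2 (0.27), 3 (0.31).

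Of the DREAM and MuvB genes, 6 of 11 were higher and 4 lower at 18 h, and 3 and 3 at 30 h. The share called was 90.9% at 18 h and 54.5% at 30 h, against 60.1% and 52.9% of all tested genes. Nothing is read from the count at 30 h. Mybl2, the MYB factor that joins MuvB in proliferating cells, averaged 462 ± 34.3 in wild type at 18 h against 1052 ± 44 in knockout (SD, n = 3 each, log2 1.16, adjusted p = 2.62e-09), and Rbl1, which encodes p107, a pocket protein that represses E2F targets, from 2544 ± 308 to 1447 ± 189 (log2 -0.81, adjusted p = 1.53e-06). Of the genes around G2 entry, 7 of 15 were higher and 5 lower at 18 h, and 5 and 5 at 30 h (80% and 66.7% called). The checkpoint kinase Chek1 was at 1.04 and the CDK-activating kinase Cdk7 at -0.65 at 18 h. Of 10 G1 and S phase cyclins, CDKs and partners, 5 were higher and 3 lower at 18 h, and 2 and 4 at 30 h (80% and 60% called). Ccnd1, the growth factor responsive cyclin, was at 0.92 and Ccne1, the cyclin of S phase entry, at -0.73 at 18 h.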

How the data were processed

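RNA of 12 samples (100 ng per array) was hybridized to Affymetrix arrays. The deposited values are intensities on a linear scale, made by the authors with PLIER 2.0 in Affymetrix Expression Console 1.1, per the submitters' processing notes; the scaling between arrays is a step not given in the sources used here. Their medians lay between 273.3 and 311.8, and arrays of a group correlated at 0.984 to 0.996.

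Of 35557 probe sets, 21789 had 1 gene symbol in the platform annotation, 1621 several and 12147 none. The brightest probe set per gene was kept, 16 was added, log2 was taken, and genes above the 30th percentile of the mean (intensity of about 175) were tested. limma 3.58.1 in R 4.3.3 fitted 4 group means over all 12 arrays with an intensity trend, and p-values of the 5 comparisons were adjusted by Benjamini-Hochberg over all tested genes. Each fold change is on the log2(intensity + 16) scale, which understates changes of dim genes. On simulated data with 13956 genes, 99 of 100 genes changed by 1 (log2) and 71 of 100 changed by 0.5 were recovered for knockout against wild type at 18 h, and 94 and 37 for the difference of time effects. Far fewer genes were changed there than were called in these comparisons, so the rates do not give the share recovered here.

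Values of every array are given, per function group, for the members with the largest difference at 18 h, at 30 h and in the difference of time effects, and for those not called or called against most members; in other lists, the largest called difference in each direction at 18 h is named. Members and lists were chosen with earlier results of these data known. Alternatives varied the offset, filter, scaling, probe set rule, trend, weights, block and arrays.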

Additional observations from a re-analysis of the deposited data

Results flagged for a closer look

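By limma's test of the difference itself, the change from 18 h to 30 h differed between wild type and knockout for 6 of 43 members (14%). It did so for 26 of the 117 other genes of mitosis, where 20.3% of all tested genes were called. The 26 were 8 positive and 18 negative, a share of 22.2% near that of all genes. Values are knockout minus wild type, with p-values adjusted over all tested genes, and are given for the 12 of these genes that the text names. Among the members these were Cdca8 at -0.68, Birc5 at -0.62, Prc1 at -0.38, Incenp at -0.34, Aurkb at -0.33 and Ccna2 at -0.22, all more negative in knockout.

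Of the other genes named, which are those with the largest called difference of their list in either direction at 18 h, Chek1, the checkpoint kinase, had -0.62 (adjusted p = 0.00431), with time effects of 0.44 in wild type and -0.18 in knockout. Cdca5, which encodes sororin, had -0.47 (adjusted p = 0.00962), with 0.28 in wild type and -0.19 in knockout. Mybl2, the MYB partner of MuvB, had -0.45 (adjusted p = 0.013), with 0.54 in wild type and 0.09 in knockout. Ube2s, an enzyme of the APC/C, had -0.32 (adjusted p = 0.0463), with 0.24 in wild type and -0.08 in knockout. Rbl1, which encodes p107, went the other way at 0.46 (adjusted p = 0.0246), with -0.02 in wild type and 0.44 in knockout, and so did Sass6, a centriole protein, at 0.74 (adjusted p = 0.00361), with 0.19 in wild type and 0.93 in knockout. The Sass6 difference between genotypes was thus below 0 at 18 h and above 0 at 30 h. The Rbl1 call ended without wild-type 18 h replicate 1 (0.45) or 2 (0.38), wild-type 30 h replicate 1 (0.45), knockout 18 h replicate 2 (0.42) or 3 (0.40), or knockout 30 h replicate 2 (0.43) or 3 (0.45). The Ube2s call ended in 12 of the alternatives, among them each of the 3 omissions of a wild-type 30 h array (-0.31 to -0.33), wild-type 18 h replicate 2 (-0.24), knockout 18 h replicates 2 (-0.33) and 3 (-0.27) and knockout 30 h replicates 2 (-0.30) and 3 (-0.31), equal array medians (-0.37) and quantile scaling (-0.31).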

How the results depend on the processing

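No member changed the sign of a called difference under any alternative. Of 40 members called at 18 h, 36 were called under every alternative, and of 39 at 30 h, 38; for time, 1 of 4 calls in wild type and 3 of 9 in knockout held throughout, as did 3 of 6 calls of the difference of time effects. Counts of members called for time in wild type, 4 with all arrays, were 2 with equal array medians, 1 without the intensity trend, 10 with array weights (a fit that stopped before it converged), 7 with only the groups compared, 8 with both low 18 h arrays left out (an alternative chosen after seeing the data) and 1 to 9 with 1 array left out. Members called for time in knockout, 9 with all arrays, were 23 with array weights, 19 without both low arrays and 5 to 13 with 1 array left out. Members called for the difference of time effects, 6 with all arrays, were 16 with array weights, 12 without both low arrays and 3 to 13 with 1 array left out. The cause was not tested.

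Over all tested genes, calls for time in wild type went from 553 to between 157 and 1032 with 1 array left out, 1739 with array weights, 995 with only the groups compared and 1668 without both low arrays; calls for time in knockout went from 5485 to 8739 with array weights, and those for the difference of time effects from 2837 to 5854 with array weights and 4447 without both low arrays. Only the groups compared gives no separate value for the difference of time effects.

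With the replicate number as a block, members higher and lower were 39 and 1 at 18 h, 37 and 2 at 30 h, 3 and 0 for time in wild type, 4 and 4 for time in knockout and 0 and 5 for the difference of time effects, and calls over all genes were 8262, 7250, 485, 5376 and 2724. Deviations from the group mean correlated at -0.455 to 0.455 between same-numbered arrays and at -0.398 to 0.463 between differently numbered ones. Deviations within a group of 3 sum to 0, so these values cannot show whether same-numbered arrays share a culture or a day. Under the block the calls of Cdc20 for time in wild type (adjusted p = 0.0631), Bub1b for time in knockout (adjusted p = 0.0518) and Ccna2 for the difference of time effects (adjusted p = 0.0561) missed the threshold. With 3 arrays a group, the size at which a member was called varied with the comparison and with the gene's spread. For time in wild type Ccna2 was called at 0.24, while Cdca8 was not at 0.33 (adjusted p = 0.0776). For the difference of time effects Ccna2 was called at -0.22, while Cdc25b was not at -0.30 (adjusted p = 0.0693).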
